A study of Mus musculus with 2 samples.

Results

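Transcripts of 9 genes that regulate or mark the epithelial-mesenchymal transition were counted in single mouse liver cells. They were the transcription factors Snai1, Snai2, Twist1, Twist2, Zeb1 and Zeb2, the cadherins Cdh1 and Cdh2, and the intermediate filament gene Vim. The genes were chosen by name and matched by Ensembl identifier, and all 9 were found among the 30406 genes that the 2 deposited gene lists share. The values come from 2 droplet libraries (10x Genomics 3′ protocol), 1 from healthy and 1 from CCl4-injured mice, so each group was 1 library and no test between groups was possible. Mice of both groups had the genotype Col1a2CreER:Rosa26tdTomato, in which the Col1a2 promoter drives a tamoxifen-inducible Cre recombinase, and the tdTomato reporter was not analysed here. Per the study's methods, injured mice received CCl4, a toxin that damages hepatocytes and leads to fibrosis, by intraperitoneal injection of a 10% solution in corn oil 2 times per week for 12 weeks, from an age of 8 to 10 weeks. The healthy mice were uninjured. Livers of both groups were digested with pronase and collagenase, cells were enriched on a Nycodenz gradient, and most CD45-positive (immune) cells were removed with magnetic beads. Mice of both sexes were used in the study. The number and sex of the mice behind each library, a vehicle injection of the healthy mice and the use of tamoxifen in these mice are not given in the sources used here.

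In an epithelial-mesenchymal transition, epithelial cells lose the adhesion that E-cadherin (Cdh1) provides between neighbours and gain traits of mesenchymal cells, among them N-cadherin (Cdh2) and the cytoskeletal protein vimentin (Vim). Snail, Twist and Zeb proteins are transcription factors known to repress Cdh1 in that process, and Snail and Zeb proteins bind E-box motifs in DNA. The same genes are also used by cells that are not in transition, such as stellate cells, fibroblasts, endothelial cells and macrophages, so their levels are given here per cell class.

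After filtering, 5602 healthy and 7314 CCl4 cells were kept, with medians of 6783.5 and 11876 UMIs (unique molecular identifiers, which count captured RNA molecules) per cell. Clusters named from fixed markers gave 6 classes. Cholangiocyte-like cells numbered 1432 in the healthy and 33 in the CCl4 library, hepatocyte-like cells 327 and 329, mesothelial-like cells 235 and 957, mesenchymal-like cells 10 and 2958, endothelial-like cells 3508 and 13, and immune-like cells 20 and 508. Another 70 healthy and 2516 CCl4 cells (1.25% and 34.4%) stayed unnamed. The composition of the libraries differed so much that a ratio of CCl4 over healthy was taken only in the classes with at least 20 cells in both. Of the cell barcodes, 10 occurred in both libraries, and 8 of these were kept. The libraries were counted with Cell Ranger 3.1.0 (healthy) and 6.0.1 (CCl4) on lists of 31053 and 32285 genes, so an effect of the counting and an effect of the injury cannot be told apart.

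Levels are in CPM, a gene's UMIs as a part of all UMIs of the summed cells, scaled to a total of 1000000, with the 95% interval in brackets. Intervals are exact (Poisson for a level, conditional binomial for a ratio, Clopper-Pearson for a share) and cover counting error only, not differences between mice. Counts taken from the 3′ end do not allow a comparison between genes, so each gene is compared with itself. Immune-like cells served as the background level, since droplets hold free RNA of other cells. Immune cells are known to use Vim, Zeb1 and Zeb2, so for these genes hepatocyte-like or cholangiocyte-like cells were the further reference. The healthy library held only 20 immune-like cells, where 1 UMI was worth 4.83 CPM, and its cholangiocyte-like cells were used beside them.

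The region just upstream of the start is shown for the member with a match to the E-box letters CACCTG (or CAGGTG on the other strand) in that region, and for Vim, as an example with no match and a single window in the table. Both sequences are RefSeq windows of 250 bases before the annotated start (build GRCm38.p6, plus strand), at chr2:167537945-167538194 for Snai1 and chr2:13574061-13574310 for Vim. Capitals mark the motif, which begins 126 bases before the start of Snai1.
Snai1: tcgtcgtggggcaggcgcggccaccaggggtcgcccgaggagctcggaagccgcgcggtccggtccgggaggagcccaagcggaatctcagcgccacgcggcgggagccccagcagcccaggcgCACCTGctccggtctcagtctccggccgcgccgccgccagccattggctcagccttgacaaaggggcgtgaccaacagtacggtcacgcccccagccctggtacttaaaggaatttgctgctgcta
Vim: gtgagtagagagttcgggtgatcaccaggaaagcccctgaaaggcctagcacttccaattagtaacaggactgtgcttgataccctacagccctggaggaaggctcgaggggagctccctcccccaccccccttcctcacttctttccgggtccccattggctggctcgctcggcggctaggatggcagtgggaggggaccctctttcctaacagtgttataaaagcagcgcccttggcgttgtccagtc
The table held 8 windows for 5 members (Snai1, Twist1, Twist2, Zeb2 and Vim), and 1 of the 8 had a match. Among all 32851 windows of the same length, 17.2% (5657) had at least 1 match, so a match is common and is given only as a description.

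The members were highest in different cell classes. The share of all genes highest in each class was not counted, so the counts here describe the members only. Among classes with at least 20 cells, 7 of the 9 genes had their highest level in the CCl4 library in the mesenchymal-like cells (Snai1, Snai2, Twist2, Zeb1, Zeb2, Cdh2 and Vim), while Twist1 was highest in mesothelial-like and Cdh1 in cholangiocyte-like cells. The 13 CCl4 endothelial-like cells were not ranked. With unnamed clusters given to the class with most enriched markers, that class had 655 CCl4 cells. Zeb1 (248 CPM) and Twist1 (50.5 CPM) were then highest in it, against 46.3 and 29.5 CPM in mesenchymal-like cells. With its 10 mesenchymal-like cells not ranked, the healthy library had Snai1, Snai2, Twist1 and Zeb1 highest in endothelial-like cells and Twist2 and Vim in mesothelial-like cells. Zeb2 was highest in the 20 immune-like cells, Cdh2 in hepatocyte-like cells and Cdh1 in cholangiocyte-like cells.

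**Figure D1:**
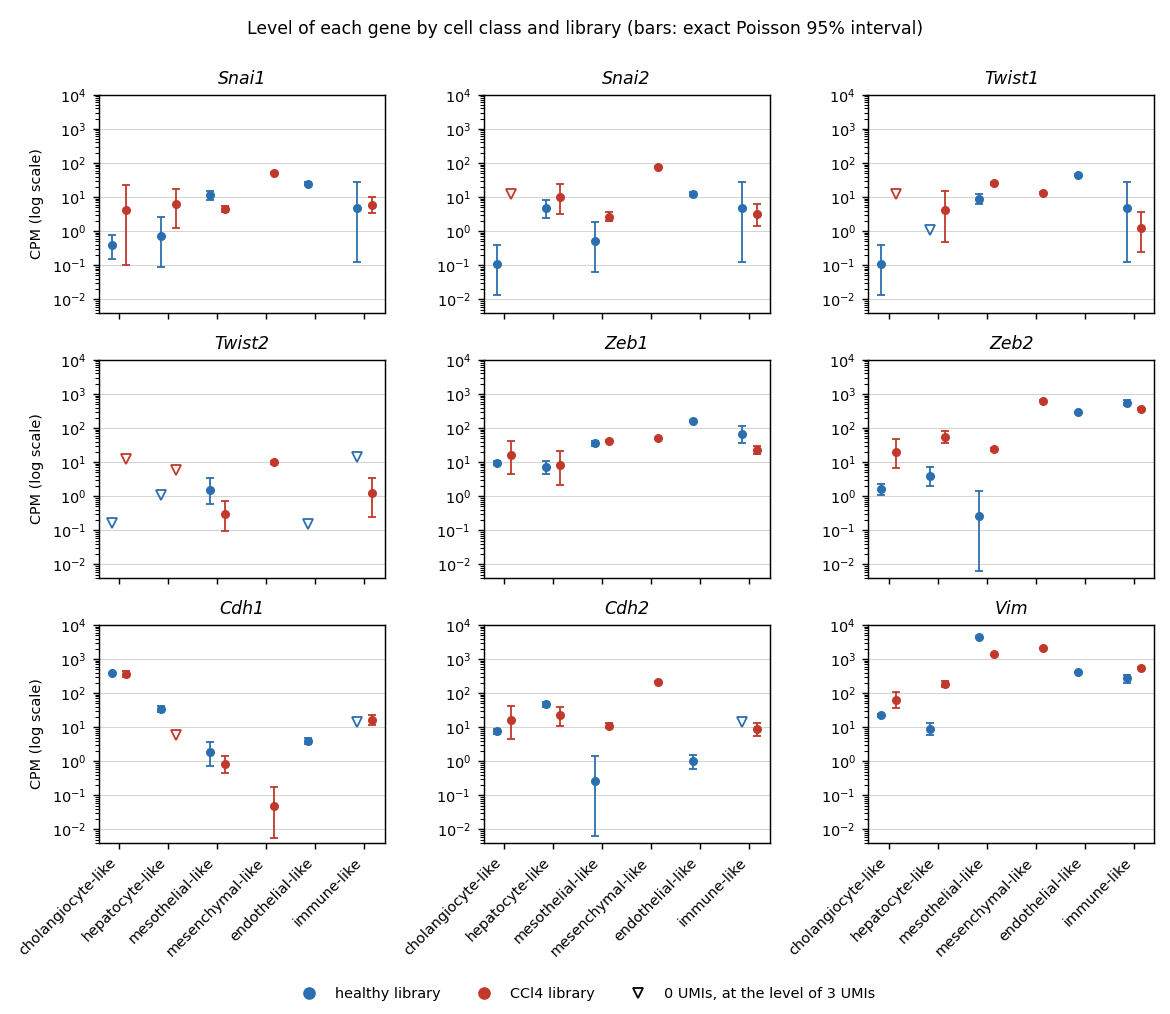
Level of each of the 9 genes (CPM, log axis) in each cell class of the healthy and the CCl4 library, with bars for the exact 95% Poisson interval of the count and open triangles at the level of 3 UMIs where none was counted. Classes with under 20 cells in a library are not drawn. Cdh1 stands far above the other classes in cholangiocyte-like cells of both libraries (391 and 360 CPM), and Cdh2 in the mesenchymal-like cells of the CCl4 library (219 CPM).

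Among the Snail factors, Snai1 is a repressor of Cdh1 that acts early in development and wound responses. In the healthy library Snai1 was at 24.7 CPM [22.6, 27.0] in endothelial-like cells (495 UMIs), 11.2 [8.09, 15.1] in mesothelial-like cells (43 UMIs) and 0.383 [0.154, 0.789] in cholangiocyte-like cells (7 UMIs), with 1 UMI in immune-like and 2 in hepatocyte-like cells. After CCl4 it was at 50.4 CPM [48.3, 52.6] in mesenchymal-like cells, against 6.03 [3.37, 9.94] in immune-like, 4.49 [3.52, 5.63] in mesothelial-like, 6.08 [1.25, 17.8] in hepatocyte-like (3 UMIs) and 4.05 [0.103, 22.6] in cholangiocyte-like cells (1 UMI). Apart from the mesenchymal-like cells, which were 8.36 times [5.06, 14.97] above the immune-like background, no class of the CCl4 library stood above it in CPM. The mesothelial-like level was 0.744 times [0.424, 1.40] the immune-like one, while the counts per droplet were 0.0773 and 0.0295 UMIs. A Snai1 UMI was found in 43.4% of mesenchymal-like cells (median 13906 UMIs) and 2.76% of immune-like cells (median 3857). With every cell thinned to 2000 UMIs the shares were 9.09% [8.08, 10.2] and 1.20% [0.392, 2.79].

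Snai2 (Slug), a close relative of Snai1, had its highest level in the same class. Its level in mesenchymal-like cells of the CCl4 library was 77.2 CPM [74.5, 79.9], against 3.21 [1.39, 6.33] in immune-like, 2.67 [1.94, 3.58] in mesothelial-like and 10.1 [3.29, 23.6] in hepatocyte-like cells (5 UMIs), and no UMI was counted in the 33 cholangiocyte-like cells, which allows up to 12.1 CPM. The healthy endothelial-like cells had 12.5 CPM [11.04, 14.2] and the cholangiocyte-like cells 0.109 [0.0132, 0.395]. With unnamed clusters given to the class with most enriched markers, CCl4 endothelial-like cells had 14.8 CPM (64 UMIs). Shares of cells with a Snai2 UMI were 56.2% in mesenchymal-like and 1.57% in immune-like cells, or 13.5% [12.3, 14.8] and 0.747% [0.160, 2.14] after thinning. Healthy hepatocyte-like cells held 13 Snai2 UMIs in 12 cells (4.70 CPM [2.50, 8.04]), and those 12 cells had a median of 44413.5 UMIs, against 2891 in the class.

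The Twist factors differed from the other members and from each other. Twist1, a basic helix-loop-helix factor of mesoderm, was at 25.1 CPM [22.7, 27.6] in mesothelial-like cells of the CCl4 library, above the 13.4 [12.3, 14.5] of mesenchymal-like cells by a ratio of 1.88 [1.65, 2.13] and above the 1.21 [0.249, 3.52] of immune-like cells (3 UMIs) by a ratio of 20.8 [7.08, 101]. Its healthy levels were 45.5 CPM [42.6, 48.6] in endothelial-like cells, 8.84 [6.12, 12.4] in mesothelial-like cells and 0.109 [0.0132, 0.395] in cholangiocyte-like cells, with no UMI in hepatocyte-like cells (an upper limit of 1.08 CPM). Shares of mesothelial-like cells with a Twist1 UMI were 9.79% healthy and 27.0% after CCl4, or 2.08% [0.656, 4.88] and 4.65% [3.39, 6.22] after thinning, beside 0.394% and 0.0840% in CCl4 immune-like cells. The thinned intervals of the 2 libraries overlapped.

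Twist2, its paralog, was highest in mesothelial-like cells of the healthy library among classes with at least 20 cells (6 UMIs, 1.56 CPM [0.573, 3.40]). In the CCl4 library it was highest in mesenchymal-like cells, at 9.85 CPM [8.92, 10.9] (410 UMIs). That was 8.17 times [2.78, 39.8] the 1.21 CPM of immune-like cells (3 UMIs). Elsewhere in the CCl4 library it had 5 UMIs in mesothelial-like cells and none in hepatocyte-like and cholangiocyte-like cells. None of the 3508 healthy endothelial-like cells, the class in which Twist1 was highest, had a Twist2 UMI, which allows a share of up to 0.0855% and a level of up to 0.150 CPM.

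Zeb1 and Zeb2 are zinc finger repressors of Cdh1 that are also used in endothelial and immune cells. Zeb1 was at 165 CPM [159, 171] in healthy endothelial-like cells, 35.4 [29.7, 41.8] in mesothelial-like, 9.63 [8.26, 11.2] in cholangiocyte-like and 7.23 [4.42, 11.2] in hepatocyte-like cells, and 14 UMIs in immune-like cells gave 67.6 CPM [36.95, 113]. The cholangiocyte-like and hepatocyte-like levels differed by a ratio of 1.33 [0.836, 2.23], within counting error. In the CCl4 library Zeb1 was at 50.03 CPM [47.9, 52.2] in mesenchymal-like, 41.8 [38.7, 45.02] in mesothelial-like, 22.5 [16.999, 29.2] in immune-like and 8.11 [2.21, 20.8] in hepatocyte-like cells (4 UMIs). Mesothelial-like cells therefore stood above immune-like cells by a ratio of 1.86 [1.41, 2.48] and above hepatocyte-like cells by 5.16 [2.004, 18.97].

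Zeb2 was highest in mesenchymal-like cells of the CCl4 library, 1.82 times [1.70, 1.95] the level of immune-like cells. It was at 642 CPM [634, 649] there and had a UMI in 98.3% of the cells (68.6% [66.8, 70.2] after thinning). Immune-like cells of the same library were at 353 CPM [330, 377], hepatocyte-like cells at 54.7 [36.1, 79.6], mesothelial-like cells at 23.7 [21.4, 26.2] and cholangiocyte-like cells at 20.2 [6.57, 47.3] (5 UMIs). The immune-like level was uneven, with 878 UMIs of which 640 came from the macrophage and monocyte-like cluster. Healthy endothelial-like cells had 294 CPM [286, 301] and the 20 immune-like cells 560 [463, 672], while hepatocyte-like cells had 3.98 [1.99, 7.12], cholangiocyte-like cells 1.59 [1.06, 2.28] and mesothelial-like cells a single UMI (0.260 CPM [0.00658, 1.45]).

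Cdh1, the adhesion molecule of epithelial junctions, was almost confined to cholangiocyte-like cells in this sampling, at 391 CPM [382, 400] healthy (7153 UMIs) and 360 [289, 444] after CCl4 (89 UMIs). A Cdh1 UMI was found in 92.2% of the healthy cholangiocyte-like cells (54.4% [51.7, 57.1] after thinning), against none of 20 healthy immune-like cells and 2.14% of endothelial-like cells (0.867% after thinning, median 5921 UMIs). Hepatocyte-like cells of the healthy library had 35.4 CPM [28.8, 43.2] (98 UMIs in 41 cells), endothelial-like cells 3.997 [3.17, 4.97] and mesothelial-like cells 1.82 [0.732, 3.75]. Per 100 UMIs of the 12 cholangiocyte markers, Cdh1 gave 1.32 UMIs [1.29, 1.36] in cholangiocyte-like, 1.69 [1.34, 2.11] in endothelial-like and 10.7 [8.63, 13.2] in hepatocyte-like cells. Most of each marker sum came from its highest single marker. That marker had 25953 of 29544 CPM in cholangiocyte-like, 211 of 237 in endothelial-like and 261 of 330 in hepatocyte-like cells. These values say little about the other markers, and the part of free RNA was not tested. Mesenchymal-like cells held 2 Cdh1 UMIs in 2958 cells (0.0481 CPM [0.00582, 0.174]). Immune-like cells of the CCl4 library, at 16.5 CPM [11.8, 22.4], were no clean background for Cdh1. Of their 41 UMIs, 24 lay in the B and plasma cell-like and 15 in the neutrophil-like cluster. The B and plasma cell-like cluster also had 4 of 7 dendritic markers, with Siglech among its leading genes, so it may hold more than 1 cell type.

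Cdh2, the cadherin of mesenchymal and neural cells that hepatocytes also use, was at 219 CPM [215, 224] in mesenchymal-like cells, where 84.1% of cells had a UMI (33.1% [31.4, 34.8] after thinning). Immune-like cells of the same library were at 8.84 CPM [5.54, 13.4], mesothelial-like cells at 11.2 [9.66, 12.96], hepatocyte-like cells at 22.3 [11.1, 39.9] (11 UMIs) and cholangiocyte-like cells at 16.2 [4.41, 41.5] (4 UMIs). The mesothelial-like level was 1.27 times [0.813, 2.07] the immune-like one, an interval that includes 1. A UMI was found in 13.6% of mesothelial-like cells (median 16897 UMIs) and 3.35% of immune-like cells (median 3857), and the shares were 1.99% [1.19, 3.11] and 1.43% [0.522, 3.1001] after thinning. Per droplet the counts were 0.193 and 0.0433 Cdh2 UMIs. With each library clustered on its own, the levels were 38.3 and 8.87 CPM, so whether mesothelial-like cells stood above the background depended on the clustering and on the measure.

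Among healthy classes with at least 20 cells, Cdh2 was highest in hepatocyte-like cells, at 47.7 CPM [39.9, 56.6]. It was at 7.55 [6.34, 8.92] in cholangiocyte-like and 0.999 [0.610, 1.54] in endothelial-like cells. There was 1 UMI in mesothelial-like cells and none in immune-like cells (an upper limit of 14.5 CPM). The 10 healthy mesenchymal-like cells, not ranked, were at 135 CPM [67.5, 242]. All 132 hepatocyte-like UMIs came from 40 cells with a median of 43626.5 UMIs and lay in cluster 3 (52.9 CPM over 166 cells). The other hepatocyte-like cluster, cluster 10, had none in 161 cells, where the upper limit was 11.1 CPM. Cdh1 was likewise mostly in cluster 3, at 37.7 CPM against 14.8 in cluster 10, with a ratio of 2.54 [0.960, 9.52] that did not exclude 1. Cells with both cadherins were 14 of 327, and 34.1% of the Cdh1-positive cells held Cdh2 against 9.09% of the others, with medians of 15718 and 2436 UMIs.

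Vim, the filament protein of mesenchymal cells, was present in every class at very different levels. Healthy mesothelial-like cells had 4591 CPM [4524, 4659] and a UMI in 99.1% of cells, endothelial-like cells 415 [406, 424], immune-like cells 270 [204, 351], cholangiocyte-like cells 22.7 [20.6, 25.0] and hepatocyte-like cells 9.04 [5.85, 13.3] (25 UMIs). The CCl4 levels were 2053 CPM [2039, 2067] in mesenchymal-like, 1403 [1385, 1421] in mesothelial-like, 547 [518, 576] in immune-like, 184 [148, 226] in hepatocyte-like and 64.8 [37.0, 105] in cholangiocyte-like cells. The mesothelial-like level was above the immune-like one by a ratio of 2.57 [2.43, 2.71].

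Within the mesenchymal-like class of the CCl4 library the members split the 3 clusters. Cluster 18 (895 cells, with Ednra, Colec11 and Lrat among its leading genes) had more Cdh2 than cluster 17 (1382 cells, led by Fbn2, Thbs4, Mfap4 and Dpep1), at 335 against 132 CPM (ratio 2.54 [2.41, 2.66]), and more Twist2 (ratio 2.02 [1.61, 2.53]) and Zeb2 (763 against 571 CPM, ratio 1.34 [1.30, 1.37]). Cluster 17 had more Twist1 (19.7 against 7.09 CPM, ratio 2.78 [2.20, 3.55]), Zeb1 (ratio 1.92 [1.72, 2.15]) and Snai1 (ratio 1.54 [1.38, 1.72]). Vim was highest in cluster 13 (681 cells), at 2627 CPM against 1783 in cluster 17. Snai2 differed little, with a ratio of 1.13 [1.04, 1.22] between clusters 18 and 17. The clusters were formed without the 9 genes and without the wider list below, but on the same cells, so these ratios are descriptions.

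Cluster 12 of the CCl4 library (610 cells) stayed unnamed because it had 10 of 17 mesenchymal and 9 of 10 mesothelial markers. Its Twist1 level of 81.2 CPM [76.2, 86.3] was the highest of any cluster with at least 20 cells, 3.25 times [2.90, 3.66] that of the mesothelial-like cluster 20 and 4.11 times [3.65, 4.64] that of the mesenchymal-like cluster 17. Zeb2 (250 CPM [241, 259]) and Cdh2 (69.1 [64.6, 73.9]) lay between those of cluster 20 (23.2 and 10.9 CPM) and cluster 17 (571 and 132 CPM). Snai2, at 5.07 CPM [3.90, 6.49], was 14.3 times [11.1, 18.7] lower than in cluster 17, and Cdh1 had 1 UMI.

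Healthy endothelial-like cells also varied by cluster. Vim was at 971 CPM in cluster 8 (691 cells, led by Vwf and Ccl21a) and 355 in cluster 2 (1315 cells, led by Cldn5, Cd300lg and Clec4g), a ratio of 2.74 [2.60, 2.88]. The opposite held for Twist1 (17.4 against 46.2 CPM), Zeb2 (201 against 297) and Zeb1 (126 against 168). The unnamed cluster 6, whose cells carried all 14 endothelial markers and were led by globin genes, held 642 CCl4 cells with 248 CPM of Zeb1, 245 of Zeb2, 51.1 of Twist1 and 420 of Vim.

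**Figure D2:**
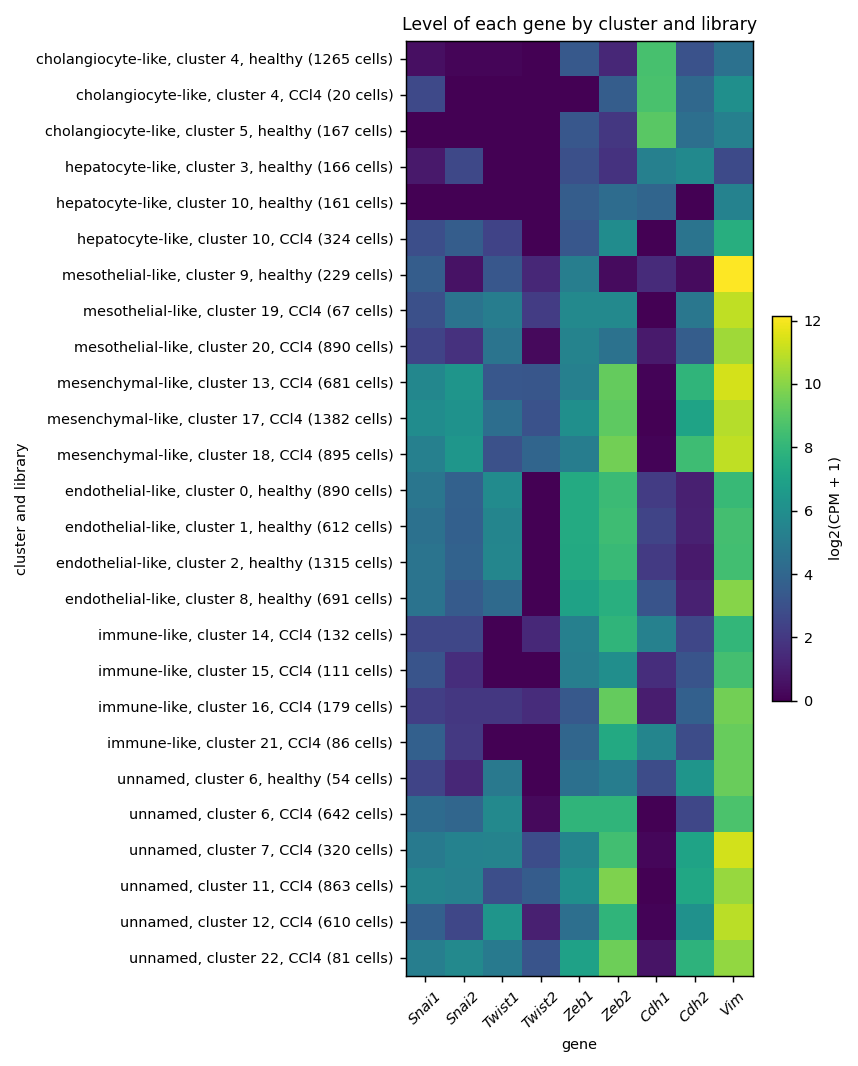
Level of the 9 genes (columns) as log2(CPM + 1) in the 26 cluster and library combinations with at least 20 cells, named by cluster number and class, with the colour giving the level. Cdh1 is high in the cholangiocyte-like rows, Cdh2 in the mesenchymal-like rows, and Twist1 is highest in the unnamed cluster 12 (81.2 CPM).

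Mesothelial-like cells gave the best counted comparison of the libraries, with 235 healthy cells (nearly all in cluster 9) and 957 CCl4 cells (clusters 20 and 19). All 9 members had at least 10 UMIs over both sums. Of these, 4 were at least 2-fold higher after CCl4 (Snai2, Twist1, Zeb2 and Cdh2), against 15.2% of the 13446 genes counted, and 4 at least 2-fold lower (Snai1, Twist2, Cdh1 and Vim), against 13.3%. The median log2 ratio of all genes was -0.05.

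Vim was lower by a ratio of 0.306 [0.300, 0.312] (17655 and 23135 UMIs) and Snai1 by 0.401 [0.272, 0.599] (43 and 74 UMIs). Twist1 was higher by a ratio of 2.84 [1.9996, 4.16] (34 and 414 UMIs), and Zeb1 differed by 1.18 [0.982, 1.43], an interval that includes 1. The remaining ratios rested on few UMIs on the healthy side. Zeb2 had 1 and 391 UMIs (ratio 91.2 [16.3, 3610]), Cdh2 1 and 185 (43.1 [7.65, 1713]), Snai2 2 and 44 (5.13 [1.34, 43.7]), Twist2 6 and 5 (0.194 [0.0469, 0.764]) and Cdh1 7 and 14 (0.466 [0.176, 1.37]).

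Read in CPM against the background of the CCl4 library, Twist1, Zeb1 and Vim stood above it in mesothelial-like cells. The other factors and Cdh2 did not in the joint clustering. In CPM, Cdh2, Snai1 and Snai2 were at the immune-like level in CCl4 mesothelial-like cells. Zeb2, at 23.7 CPM, was below the hepatocyte-like level of the same library by a ratio of 0.433 [0.293, 0.666]. Counted per droplet, mesothelial-like cells held 0.409 Zeb2 UMIs against 0.0821 in hepatocyte-like and 1.73 in immune-like cells. Cdh2, Snai1 and Snai2 had 0.193, 0.0773 and 0.0460 UMIs per droplet in mesothelial-like cells (median 16897 UMIs). In immune-like cells (median 3857 UMIs) the counts were 0.0433, 0.0295 and 0.0157. These genes were thus at the immune-like level in CPM but above it per droplet, and the part of free RNA was not tested. The 17 mesenchymal markers summed to 8049 CPM in healthy and 5997 CPM in CCl4 mesothelial-like cells, with 15 and 17 of them detected. Most of each sum came from the highest single marker, at 6743 and 4239 CPM, so the sums say little about the other markers. The part of these transcripts in the ratios was not tested. With each library clustered on its own, the CCl4 mesothelial-like levels of Zeb2, Cdh2 and Twist1 were 124, 38.3 and 51.1 CPM.

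**Figure D3:**
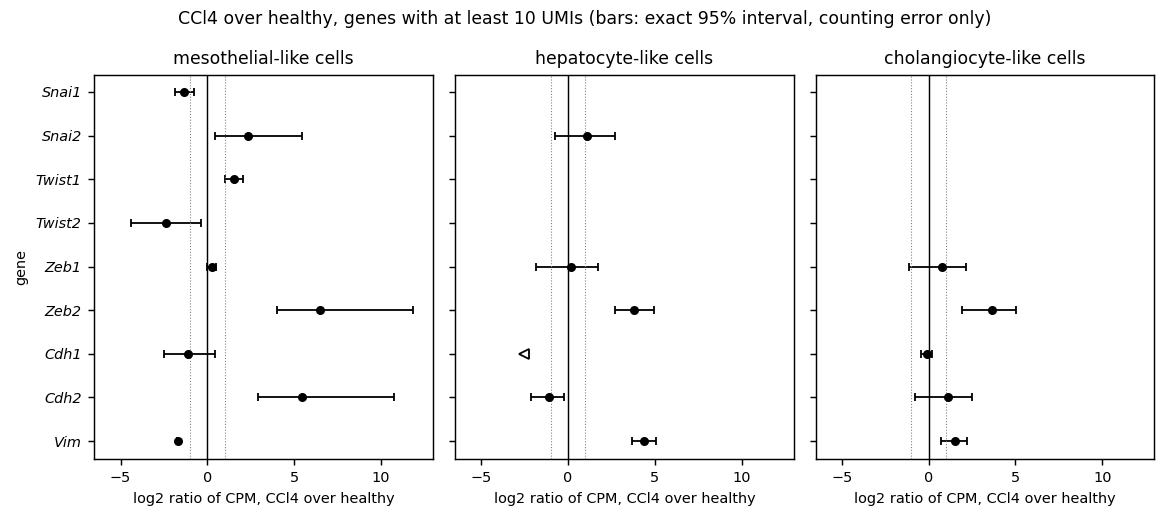
Log2 ratio of CPM, CCl4 over healthy, for the members with at least 10 UMIs in mesothelial-like, hepatocyte-like and cholangiocyte-like cells, with exact 95% conditional binomial intervals, dotted lines at 2-fold and an open triangle at the bound where one library had no UMI. Zeb2 lies right of the line of no difference in all 3 classes (ratios 91.2, 13.8 and 12.8), while Vim lies left of it in mesothelial-like cells (0.306) and right of it in the other classes (20.4 and 2.85).

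Hepatocyte-like cells had 6 members with at least 10 UMIs. Vim was higher after CCl4 by a ratio of 20.4 [12.98, 33.2] (25 and 91 UMIs) and Zeb2 by 13.8 [6.604, 30.7] (11 and 27 UMIs). Cdh1 went from 98 to 0 UMIs (upper limit of the ratio 0.215) and Cdh2 from 132 to 11 (ratio 0.467 [0.228, 0.863]). The intervals of Snai2 (2.16 [0.602, 6.44]) and Zeb1 (1.12 [0.279, 3.35]) included 1. With Snai2, 3 members were past 2-fold higher, against 15.6% of 9504 genes, and 2 past 2-fold lower, against 27.4%.

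These cells were not the same in the 2 libraries. Their median was 2891 UMIs in the healthy and 898 in the CCl4 library, and 324 of the 329 CCl4 cells lay in cluster 10, where 161 of the 327 healthy cells lay. Within cluster 10, Vim was higher by a ratio of 4.87 [2.60, 10.1] and Zeb2 by 3.22 [1.22, 10.7]. The counts of Cdh2 were 0 and 11 UMIs (lower limit of the ratio 1.49), and those of Cdh1 were 4 and 0. So the ratio of Vim shrank, and that of Cdh2 took the opposite direction, within the shared cluster. There, 11.5% of 5493 genes were at least 2-fold higher. The direction also turned for Cdh2 with every cell weighing the same (12.5 healthy and 33.1 CPM after CCl4), and for Zeb2 with a mitochondrial limit of 10% (181 and 99.8 CPM), which left 36 healthy and 268 CCl4 cells of the class. A minimum of 1000 UMIs per cell left 86 healthy and only 3 CCl4 cells, so the comparison rests on shallow CCl4 droplets.

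Transcripts of mesenchymal marker genes were counted in the CCl4 hepatocyte-like droplets in general. Of the 17 mesenchymal markers, 16 were detected, with 1172 UMIs or 3.56 per droplet (2375 CPM, against 11.6 CPM and 8 markers in the healthy library). Per 100 of these marker UMIs, Vim gave 7.76 UMIs [6.20, 9.62] in hepatocyte-like and 6.96 [6.91, 7.01] in mesenchymal-like cells. The figures for Zeb2 were 2.30 [1.51, 3.37] and 2.17 [2.15, 2.20], and for Cdh2 0.939 [0.467, 1.69] and 0.743 [0.728, 0.758]. The proportion of these 3 members to mesenchymal markers did not differ between the classes beyond counting error. Immune-like cells, by contrast, had 38.7 Vim and 25.0 Zeb2 UMIs per 100. For Cdh2 there was no such contrast, as their interval (0.626 [0.392, 0.949]) also included the mesenchymal-like value. Whether the hepatocyte-like cells themselves held these transcripts was not tested.

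**Figure D4:**
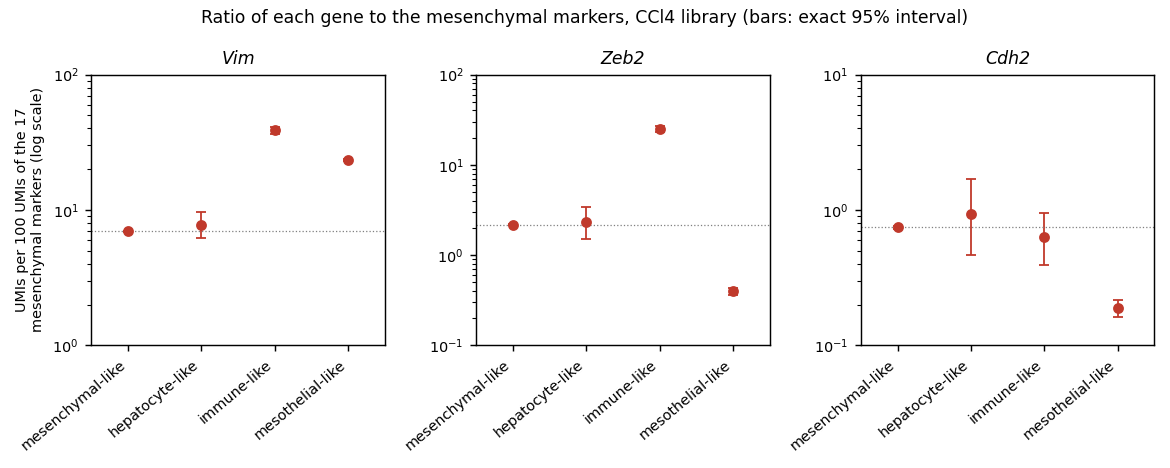
UMIs of Vim, Zeb2 and Cdh2 per 100 UMIs of the 17 mesenchymal markers (log axis) in 4 classes of the CCl4 library, with 95% intervals for counting error and a dotted line at the mesenchymal-like value. The intervals of hepatocyte-like cells include that line for all 3 genes (7.76, 2.30 and 0.939). Immune-like cells lie above it for Vim and Zeb2 (38.7 and 25.0), while their interval for Cdh2 (0.626) includes it.

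In cholangiocyte-like cells, where the CCl4 library had only 33 cells, Cdh1 was nearly the same in both libraries (ratio 0.921 [0.739, 1.14]). Vim was higher by 2.85 [1.62, 4.69] (415 and 16 UMIs) and Zeb2 by 12.8 [3.86, 33.4] (29 and 5 UMIs), and the intervals of Zeb1 (1.68 [0.453, 4.39]) and Cdh2 (2.15 [0.577, 5.62]) included 1. Thus 3 of 5 members counted were past 2-fold higher, against 7.39% of 13422 genes, and none was past 2-fold lower, against 29.5%. The CCl4 levels of Vim, Zeb2 and Cdh2 (64.8, 20.2 and 16.2 CPM) were not above those of hepatocyte-like cells of the same library in CPM. Per droplet they were, at 0.485, 0.152 and 0.121 UMIs against 0.277, 0.0821 and 0.0334. The medians were 7334 UMIs in cholangiocyte-like and 898 in hepatocyte-like cells. The 17 mesenchymal markers summed to 110 CPM in healthy cholangiocyte-like cells (15 detected) and 522 CPM after CCl4 (13 detected, 129 UMIs). Per 100 of the latter, Vim gave 12.4 UMIs [6.88, 20.9] and Zeb2 3.88 [1.24, 9.28], and the part of these transcripts in the ratios was not tested. With 30 principal components the healthy Vim level was 41.7 CPM in place of 22.7. Immune-like cells, the background class, also differed between the libraries: Vim was higher by 2.02 [1.55, 2.69], while Zeb2 (0.630 [0.519, 0.771]) and Zeb1 (0.333 [0.183, 0.648]) were lower, with 20 healthy cells behind the ratios. The class lay in different clusters, since 14 of the 20 healthy but 179 of the 508 CCl4 cells were in the macrophage and monocyte-like cluster 16. The 12 macrophage markers summed to 33453 and 9504 CPM and the 7 neutrophil markers to 1144 and 24947 CPM in the healthy and CCl4 library. Within cluster 16, Zeb2 was at 665 CPM [542, 807] in the healthy and 613 [566, 662] in the CCl4 library.

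Members were found together in the same cells mainly where each was abundant. Both Cdh2 and Vim were detected in 2479 of 2958 mesenchymal-like cells (83.8% [82.4, 85.1]). At least 1 of the 6 transcription factors was detected in 99.4% of these cells. Of the cells, 971 held 3 different factors, 545 held 4, 123 held 5 and 14 held all 6. The share with at least 1 factor was 85.4% in healthy endothelial-like cells, 56.6% and 70.4% in healthy and CCl4 mesothelial-like cells, 53.5% in CCl4 immune-like cells, 12.4% in healthy cholangiocyte-like cells and 10.7% and 11.2% in healthy and CCl4 hepatocyte-like cells. These shares were not thinned. Median depths ran from 898 UMIs in CCl4 hepatocyte-like to 18285 in healthy mesothelial-like cells, so the shares differ in depth as well. Zeb2 alone was found in 2909 mesenchymal-like and 236 immune-like cells of the CCl4 library.

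Cdh1 and Vim occurred together in 256 of 1432 healthy cholangiocyte-like cells (17.9% [15.9, 19.96]). Vim was found in 19.4% of the cells with Cdh1 (median 11532 UMIs) and 12.6% of those without (median 2090 UMIs), so the shares differ in depth as well. Per 100 UMIs of the 10 mesothelial markers, Vim gave 22.2 [19.9, 24.7] in these cells and 44.6 [43.8, 45.4] in mesothelial-like cells, and per 100 UMIs of the 14 endothelial markers it gave 15.6 [14.1, 17.4] against 2.09 [2.04, 2.13] in endothelial-like cells. In the same cells Zeb2 stood at 1.09 [0.731, 1.57] per 100 endothelial marker UMIs, against 1.48 [1.44, 1.51] in endothelial-like cells, and Zeb1 at 6.63 [5.66, 7.73] against 0.828 [0.8002, 0.857].

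The wider set of 58 genes around the 9 members was grouped by role and read in the mesothelial-like comparison. Of 8 mesenchymal effectors, 6 were at least 2-fold higher and none lower, with a median log2 ratio of 2.37 (a gene with no healthy UMI taken at its bound), beside -0.05 for all genes. Over all genes 15.2% were that much higher and 13.3% that much lower, which also holds for the counts of the other groups in these cells. The matrix protein gene Fn1 went from 5.20 to 189 CPM (ratio 36.3 [23.5, 59.6]), the galectin gene Lgals1 from 43.2 to 1375 CPM (31.9 [27.3, 37.3]) and S100a4 from 23.9 to 133 CPM (5.58 [4.53, 6.95]), while the integrin gene Itgb1 was at 248.6 and 263 CPM (1.06 [0.986, 1.14]). Of 9 counted cadherins and catenins, 2 were higher and 4 lower (median log2 ratio -0.68). Cdh11 was higher by 7.03 [6.22, 7.97] and Cdh3 lower by 0.416 [0.378, 0.458], and the catenins Ctnna1 (0.623) and Ctnnb1 (0.887) lay between.

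Epithelial junction genes went both ways, with 3 of 12 higher and 4 lower (median log2 ratio -0.08). The tight junction genes Cldn3 (25.7 [17.1, 40.7]) and F11r (0.164 [0.152, 0.176]) were opposite, the desmosomal cadherin Dsg2 was higher (4.69 [3.84, 5.78]) and the tricellular junction gene Lsr was at 0.739 [0.668, 0.819]. Among 3 counted epithelial-state regulators, Klf5 was lower (0.307 [0.251, 0.377]), the splicing regulator Esrp2 was near 1 (0.949 [0.522, 1.85]) and Elf3 rested on 1 healthy UMI (7.23 [1.20, 295]). Of 4 counted other transcription factors of the mesenchymal state, Foxc1 was lower (0.149 [0.105, 0.211]), Tcf4 was at 0.504 [0.437, 0.583] and Tcf3 at 0.807 [0.644, 1.02]. Prrx1 had 0 and 48 UMIs. The filament genes Krt8 (0.734), Krt18 (0.894) and Lmna (0.545) were within 2-fold, and Synm was lower (0.0698 [0.0472, 0.101]).

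The same set was read in hepatocyte-like cells. Of 12 counted junction genes, none was at least 2-fold higher and 6 were lower (median log2 ratio -0.50, beside 0.12 for all genes, of which 15.6% were higher and 27.4% lower), among them Dsg2 (0.221 [0.0704, 0.528]) and Lsr (0.334 [0.175, 0.584]), with Cldn3 at 0.518 [0.319, 0.803] and Perp at 0.628 [0.402, 0.944]. None of 6 cadherins and catenins was higher and 2 were lower. Fn1, which hepatocytes secrete into plasma, was lower (491 and 128 CPM, ratio 0.260 [0.198, 0.335]), and Lgals1 was higher (25.3 and 290 CPM, ratio 11.4 [8.54, 15.5]). Of the filament genes, Krt8 (2.37 [2.04, 2.76]) and Lmna (2.89 [2.12, 3.90]) were higher and Krt18 was at 1.45 [1.21, 1.72].

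The class with the highest level was also counted for the wider set, over a fixed choice of classes. These were cholangiocyte-like, hepatocyte-like, mesothelial-like and endothelial-like cells of the healthy library and mesenchymal-like, mesothelial-like and immune-like cells of the CCl4 library. Hepatocyte-like and cholangiocyte-like cells of the CCl4 library and healthy immune-like cells were left out. The same counts over all genes were not made, so those below only describe the set. Of 15 junction genes, 11 were highest in healthy cholangiocyte-like cells, as were 6 of 8 epithelial-state regulators, and 6 of 8 mesenchymal effectors were highest in CCl4 mesenchymal-like cells. Of the 10 other transcription factors of the mesenchymal state, 3 were highest in CCl4 mesenchymal-like cells, 2 in healthy mesothelial-like, 2 in CCl4 immune-like, 1 in healthy endothelial-like and 1 in healthy cholangiocyte-like cells. The 3 genes most like each member over the 23 clusters were taken by Pearson's r of log2(CPM + 1) among 7892 genes. They were Ston1, Nid1 and Plscr4 for Snai1 (0.92 to 0.93), Gucy1b1, Itga8 and Ppp1r14a for Snai2 (0.91 to 0.92), Zfp503, Heg1 and Prickle1 for Twist1 (0.89 to 0.95), and Rem1, Lhx2 and Pde1a for Twist2 (0.93 to 0.95). For Zeb1 they were Ago3, Tbxa2r and Trim56 (0.90 to 0.91), and for Zeb2 Emilin1, Chst15 and Ap1s2 (0.88 to 0.90). Marveld2, a component of tricellular tight junctions, Myh14 and Gm19935 were most like Cdh1 (0.88 to 0.91), Arhgap42, Cxcl12 and Fam171b most like Cdh2 (0.91 to 0.93), and Rcn3, Mxra8 and Gpx8 most like Vim (0.91 to 0.92). These values are descriptions, since the clusters share 2 libraries and their depth.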

How the data were processed

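For each of the libraries, the authors deposited raw UMI counts by gene and barcode, 6297 healthy cells (51122846 UMIs) and 8460 CCl4 cells (97611831 UMIs). Cell Ranger 3.1.0 and 6.0.1 wrote them, per the file headers. Their genome build is not given in the sources used here, as the study's methods name a human build, which the mouse identifiers contradict.

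Kept cells had 500 UMIs and 200 genes or more and no more than 30% mitochondrial UMIs (79 healthy and 155 CCl4 cells fell to the first limits, 339 and 504 to the last). The highest Scrublet scores, 0.8% per 1000 cells, were taken as doublets (277 and 487). Both libraries were clustered jointly on 2000 variable genes, leaving out the members and the wider list, after normalization to 10000 UMIs and a log transform, with 10 principal components, 20 neighbours and Leiden resolution 1 (seed 1), which gave 23 clusters, 18 of them named. Markers of 11 classes named them. A marker had to reach 2 times the median of the other clusters and be found in 10% of the cells, and 3 were required. No name was given where the 10 genes leading a cluster (of 50 CPM or more) held more markers of another class. The same held where a second class reached 90% of its own marker list, or where shallow cells had no marker among the leading genes. The median reference and the 90% rule were set after the data had been seen, the immune classes were joined, and names can differ from those of the study.

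UMIs were summed per class and library. Ratios needed 10 UMIs over both sums, genes were counted as different from 2-fold, and zeros were bounded by 3 counts. Shares thinned to 2000 UMIs are expected values over random thinning. No p-value was computed, since each group was 1 library. All 9 members were named, with up to 4 genes per group of the wider list (58 genes in 6 groups), those with most UMIs in the cells compared, and the 3 genes most like each member (clusters of 50 cells or more, genes of 50 CPM or more in a cluster, members of 200 UMIs or more). Members and lists were chosen with earlier results of these data known. Alternatives changed the variable genes, components, resolution, filters, doublet removal, scaling and thinning. Scripts were tested on simulated data. Tools, by version, were matplotlib 3.10.9, igraph 0.11.9, pandas 2.3.3, scipy 1.17.1, numpy 2.4.6, anndata 0.12.19 and scanpy 1.11.5 under python 3.11.15, and, for TMM factors, edgeR 4.0.16 under R 4.3.3.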

Additional observations from a re-analysis of the deposited data

Results flagged for a closer look

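The ratios of Zeb2, Cdh2 and Vim lay on opposite sides of 1 in different classes, and with 1 library per group these differences were not tested. The Zeb2 ratio of CCl4 over healthy was 91.2 in mesothelial-like, 13.8 in hepatocyte-like and 12.8 in cholangiocyte-like cells and 0.63 in immune-like cells. The immune-like cells were 14 of 20 in the macrophage and monocyte-like cluster in the healthy library and 179 of 508 in the CCl4 library, with Zeb2 at 665 and 613 CPM within that cluster. In hepatocyte-like cells Zeb2 was at 181 and 99.8 CPM with a mitochondrial limit of 10%, the opposite direction. The Cdh2 ratio was 43.1 in mesothelial-like and 0.467 in hepatocyte-like cells. The latter turned within cluster 10 (0 and 11 UMIs) and when all cells weighed equally (12.5 and 33.1 CPM), which gives the direction of the mesothelial-like ratio. The Vim ratio was 20.4 in hepatocyte-like, 2.85 in cholangiocyte-like and 2.02 in immune-like cells and 0.306 in mesothelial-like cells. The healthy sums behind the Zeb2 and Cdh2 ratios in mesothelial-like cells were 1 UMI each.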

How the results depend on the processing

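No paired analysis was possible because the labels give no replicate numbers and each group was 1 library. The count of members at least 2-fold higher in CCl4 mesothelial-like cells was 4 under every alternative. The count at least 2-fold lower was 4 or 3, except with a minimum of 1000 UMIs per cell, where it was 2. The count of members highest in CCl4 mesenchymal-like cells was 6 or 7, and that in healthy cholangiocyte-like cells was 1 throughout. With unnamed clusters given to the class with most markers, Zeb1 and Twist1 were highest in CCl4 endothelial-like cells (248 and 50.5 CPM). The mesothelial-like Vim ratio (0.306) became 0.288 with 30 principal components, 0.378 with each library clustered on its own, 0.292 with a mitochondrial limit of 10%, 0.329 with TMM scaling, 0.297 with every cell weighing the same and 0.355 with cluster 12 added, an alternative that, like leaving out cluster 19 and giving unnamed clusters to the class with most markers, was chosen after seeing the data. The Cdh1 ratio ranged from 0.189 to 0.552 and the Cdh2 ratio from 21.4 to 147, and none of these 3 ratios changed direction. With each library clustered on its own, the CCl4 mesothelial-like levels of Zeb2, Cdh2 and Twist1 rose to 124, 38.3 and 51.1 CPM. Without doublet removal the CCl4 hepatocyte-like levels of Vim, Zeb2 and Cdh2 were 620, 208 and 45.3 CPM and the immune-like Cdh2 level was 32.8 CPM. With a mitochondrial limit of 10%, the healthy hepatocyte-like levels of Vim and Zeb2 were 151 and 181 CPM. With 30 principal components the healthy cholangiocyte-like Vim level was 41.7 CPM. In hepatocyte-like cells the direction turned for Cdh2 with every cell weighing the same and for Zeb2 with the 10% limit. At Leiden resolution 0.5 the CCl4 library had 0 hepatocyte-like cells. With a minimum of 1000 UMIs per cell it had 3, beside 86 in the healthy library, so no hepatocyte-like ratio was taken there. The causes were not tested. The number of cells limits what the 33 CCl4 cholangiocyte-like and 20 healthy immune-like cells can show.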

Other observations

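In the cycling cluster 7, which stayed unnamed (16 of 17 mesenchymal and 9 of 10 mesothelial markers), the 320 CCl4 cells had Vim at 2576 CPM [2535, 2618], Cdh2 at 130 [121, 140], Twist1 at 41.7 [36.6, 47.3] and 1 Cdh1 UMI. The 3 healthy cells of the same cluster all had Epcam and Cdh1 UMIs (38 Cdh1 UMIs) and none of the 6 transcription factors. The unnamed cluster 11, led by globin genes, held 863 CCl4 cells with Zeb2 at 900 CPM [857, 944], the highest level of any cluster with at least 20 cells, and Cdh2 at 150 CPM [133, 169]. The 10 healthy mesenchymal-like cells, too few for a ratio, had no Twist1 or Cdh1 UMI. They held 60 Zeb2 (737 CPM), 11 Cdh2 (135 CPM), 8 Snai1 (98.3 CPM), 5 Snai2 (61.4 CPM) and 3 Twist2 UMIs (36.9 CPM). As point values, these levels were above those of every healthy class with at least 20 cells. In the unnamed cluster 6, 54 healthy cells held 53 Cdh2 UMIs in 12 cells (80.4 CPM [60.3, 105]), and the 642 CCl4 cells held 21 in 19 cells (4.92 CPM [3.05, 7.52]).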
